A study of Mus musculus with 38 samples.

Results

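The 9 genes described here are regulators of naive pluripotency in mouse embryonic stem cells (mESCs), namely Esrrb, Nr5a2, Tfcp2l1, Gbx2, Prdm14, Zfp42, Gab1, Dppa2 and Dppa4. They were taken by name from 21938 protein-coding genes of the GENCODE M21 annotation on the GRCm38 mouse genome. Histone modifications had been mapped by chromatin immunoprecipitation and sequencing (ChIP-seq) in ES-E14TG2a cells, an mESC line, cultured in serum with leukaemia inhibitory factor (LIF) and sampled at 0 h, before any differentiation. IκBα-WT cells (WT) had received scrambled guide RNAs, and in IκBα-KO cells (KO) the gene Nfkbia, which encodes the NF-κB inhibitor IκBα, had been disrupted with CRISPR-Cas9. Of 38 samples, 30 were ChIP libraries, with 3 WT and 3 KO libraries for each of 5 marks, and 8 were inputs. The study describes 3 independent clones per genotype, made from single cells sorted after transfection of Cas9 and guide plasmids, and 3 biological replicates per mark. The sources used here do not tie each library to a clone, so p-values measure the spread between these libraries.

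Naive pluripotency is the state of the preimplantation epiblast, and mESCs hold it through a network of transcription factors that sustain one another and are switched off when cells move towards the primed state. Trimethylation of histone H3 at lysine 4 (H3K4me3) marks active and poised promoters, acetylation at lysine 27 (H3K27ac) marks active promoters and enhancers, and monomethylation at lysine 4 (H3K4me1) marks enhancers whether or not they are active. H3K27me3 is laid down by Polycomb repressive complex PRC2 over silent developmental genes, and H3K9me3 is a mark of heterochromatin. Esrrb and Nr5a2 encode orphan nuclear receptors, Tfcp2l1 a CP2-family factor downstream of LIF, Gbx2 a homeobox factor induced by LIF, and Prdm14 a zinc-finger protein that restrains FGF signalling and DNA methylation. Zfp42, also known as Rex1, encodes a zinc-finger protein widely used as a marker of the naive state, Gab1 encodes a docking protein of receptor signalling, and Dppa2 and Dppa4 encode partner proteins that bind CpG-rich promoters.

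For each gene, the window examined ran from 20 kb before to 20 kb after the gene body, and the amount of a mark was first taken as the base pairs covered by called regions in each library. Windows ranged from 43224 bp at Gbx2 to 200512 bp at Esrrb. Dppa4 and Dppa2 lie 9670 bp apart on chromosome 16 and shared 30330 bp of their windows, so their values are not independent. Windows of Tfcp2l1, Prdm14 and Gbx2 also touched the protein-coding neighbours Clasp1, Ncoa2 and Asb18. Zfp42 and Gab1 lie in a long segment of chromosome 8, beginning at 40 Mb, in which input reads per kb were higher in the KO, by a median log2 of 0.49 in the H3K27ac, 0.50 in the H3K4me1, 0.27 in the H3K9me3 and 0.24 in the H3K27me3 experiment. H3K27ac and H3K4me1 libraries shared 1 input for each genotype, so their values of 0.49 and 0.50 are not independent. The H3K4me3 lists carry no reads, so reads within their calls are unknown. The study's methods give a range of sequencing depth for this mark, without the depth of each library. The other lists held 8548342 to 12105343 ChIP reads within H3K9me3 calls, 8910890 to 10938375 for H3K27me3, 22943091 to 28339766 for H3K27ac and 34736939 to 35951506 for H3K4me1. Called H3K4me3 sequence summed to 17.2 to 19.3 Mb in the WT and 19.02 to 22.1 Mb in the KO libraries, and H3K27ac to 380 to 393 Mb against 411 to 419 Mb, so that gains in covered sequence at single genes have to be read beside those of all genes. Promoters of all 8 mESC marker genes examined carried H3K27ac in all 6 libraries and H3K27me3 in none. Fibroblast feeder markers had H3K27ac at promoters of 5 of 8 genes in at least 1 library, with 10385 to 15040 bp in all in the WT and 3501 to 9039 bp in the KO, while Col1a2, Dcn and Postn had none. Covered H3K4me3 at promoters was 2551 to 3122 bp in the WT and 4943 to 6112 bp in the KO over the 8 mESC markers, which are also in the list of naive-network genes below. Over 8 trophectoderm markers it was 3397 to 3987 bp against 1322 to 1865 bp, with none at Elf5 and Krt8, and over 9 primitive endoderm markers 1759 to 2457 bp against 1140 to 2482 bp, which overlapped. The part of such differences in the results below was not tested.

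Sequences of 6 sites on which the results turn are shown first, 5′ to 3′ on the strand of the gene, with CpG dinucleotides in capitals. For Zfp42 and Gbx2 these are the 250 bases before the RefSeq transcription start (GRCm38.p6), at chr8:43307010-43307259 on the minus strand and chr1:89931177-89931426 on the minus strand. The other 4 are windows of 300 bases around the summit of the strongest H3K4me3 peak in a region that was higher in the KO or found only there. They lie in the body of Zfp42 (chr8:43299825-43300124, minus strand), in a region of Esrrb that touches an exon (chr12:86470166-86470465, plus strand), beside the start of Dppa4 (chr16:48284140-48284439, plus strand) and in an intron of Tfcp2l1 (chr1:118650552-118650851, plus strand).
Zfp42 promoter: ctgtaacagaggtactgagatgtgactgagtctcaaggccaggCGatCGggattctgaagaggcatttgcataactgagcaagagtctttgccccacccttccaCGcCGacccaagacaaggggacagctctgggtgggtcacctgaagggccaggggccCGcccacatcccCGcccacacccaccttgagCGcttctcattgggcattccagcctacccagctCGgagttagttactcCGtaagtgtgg
Gbx2 promoter: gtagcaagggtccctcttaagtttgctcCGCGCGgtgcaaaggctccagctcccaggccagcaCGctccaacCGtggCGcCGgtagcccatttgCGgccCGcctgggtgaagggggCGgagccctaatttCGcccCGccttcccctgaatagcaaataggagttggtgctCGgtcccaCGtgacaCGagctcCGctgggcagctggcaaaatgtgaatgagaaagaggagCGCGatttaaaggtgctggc
Zfp42 gene body: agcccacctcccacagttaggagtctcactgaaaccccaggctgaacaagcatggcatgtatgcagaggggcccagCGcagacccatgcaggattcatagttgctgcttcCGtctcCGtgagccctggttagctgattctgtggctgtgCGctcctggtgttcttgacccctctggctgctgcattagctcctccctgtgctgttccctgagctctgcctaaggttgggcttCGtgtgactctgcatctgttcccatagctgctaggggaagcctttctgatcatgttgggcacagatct
Esrrb gene body: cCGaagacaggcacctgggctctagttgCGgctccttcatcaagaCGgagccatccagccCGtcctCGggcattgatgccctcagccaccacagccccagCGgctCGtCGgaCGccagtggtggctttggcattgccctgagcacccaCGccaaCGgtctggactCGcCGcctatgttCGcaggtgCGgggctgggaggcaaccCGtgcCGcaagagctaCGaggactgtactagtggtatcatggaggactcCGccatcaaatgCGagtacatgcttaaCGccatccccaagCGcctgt
Dppa4 start: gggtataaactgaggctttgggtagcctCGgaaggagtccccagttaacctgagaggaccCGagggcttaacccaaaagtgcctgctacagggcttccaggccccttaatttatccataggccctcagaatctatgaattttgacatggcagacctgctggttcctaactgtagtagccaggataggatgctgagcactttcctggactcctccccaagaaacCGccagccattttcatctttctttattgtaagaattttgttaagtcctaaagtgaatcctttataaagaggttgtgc
Tfcp2l1 intron: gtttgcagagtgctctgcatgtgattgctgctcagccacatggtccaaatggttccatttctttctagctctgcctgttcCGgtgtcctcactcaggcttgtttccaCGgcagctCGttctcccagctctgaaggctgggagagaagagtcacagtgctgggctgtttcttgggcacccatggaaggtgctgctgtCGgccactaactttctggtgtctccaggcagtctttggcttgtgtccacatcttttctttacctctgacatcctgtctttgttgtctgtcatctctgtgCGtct
The Gbx2 promoter held 18 CpG dinucleotides in its 250 bases and the Zfp42 promoter 9. Among the summit windows, Esrrb held 22, Zfp42 and Tfcp2l1 5 each, and Dppa4 3, whereas the median was 25 over 14907 H3K4me3 regions called in all 6 libraries and 6 over 974 regions called only in the KO. Promoters were matched for 6 of the 9 genes, all but Prdm14, Dppa2 and Dppa4. The letters bound by Esrrb and Nr5a2 (TCAAGGTCA) and by Prdm14 (GGTCTCTAA), the paired Tfcp2l1 motif and the κB motif of NF-κB were searched on both strands. No exact match was present in any promoter or summit window of the 9 genes. Variants of these letters, such as tcaaggcca in the Zfp42 promoter, were not searched for. Of all 32851 RefSeq promoters of 300 bases, 0.423% held the first, 0.256% the second, 3.44% the Tfcp2l1 motif and 1.47% the κB motif.

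H3K4me3 covered more sequence in the KO at all 9 genes, and at each of them the 3 KO libraries lay above the 3 WT libraries. The same held for 26.9% of the 16227 genes with an H3K4me3 call in their window, and the opposite order held for 6.89%. The median ratio of KO to WT means was 1.82 over the 9 genes and 1.09 over all genes. With 3 libraries a group the smallest p that the exact permutation test can give, with both sides counted, is 0.1, and that was the value at each of the 9 genes. With windows of 10 kb either side, Prdm14 and Dppa4 overlapped between genotypes, and with the same number of top-ranked peaks from every library Tfcp2l1 and Nr5a2 did, which left 7 genes in either case. Of all genes with a call, 25.2% were higher in the KO without overlap in the first case and 23.9% in the second.

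**Figure D1:**
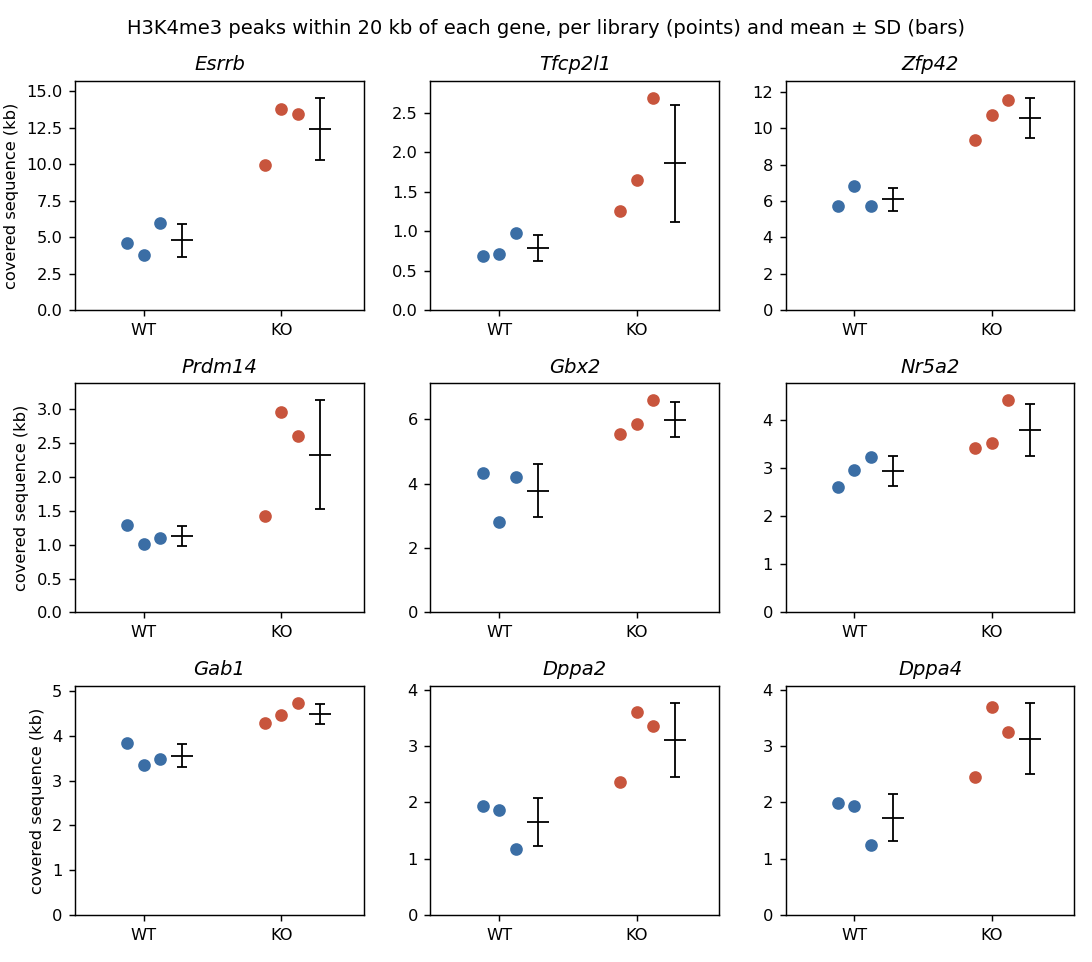
Sequence covered by H3K4me3 peaks (kb, vertical axis, from 0 and on a scale of its own for each gene) within the gene body and 20 kb either side, for 3 WT (blue) and 3 KO (red) libraries, with mean ± SD of each genotype (black, n = 3). In every panel the lowest red point lies above the highest blue point, and the ratio of means is largest at Esrrb (2.60), Tfcp2l1 (2.36) and Prdm14 (2.05).

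At Esrrb, H3K4me3 covered 4590, 3750 and 5948 bp in WT libraries against 9928, 13785 and 13457 bp in KO libraries, a ratio of means of 2.60. All KO values exceeded the highest WT value by a wide margin. No peak lay at the annotated 5′ end of the gene (chr12:86361117, plus strand). Regions shared by all libraries lay instead 60.4 kb into the gene, beside a second RefSeq start, and from 108.6 to 113.3 kb. Over the whole window, WT libraries had 9, 7 and 10 peaks and KO libraries 15, 22 and 24. The highest fold enrichment over input in the region at chr12:86469709-86471343 was 7.30, 9.79 and 10.7 in the WT and 12.8, 18.2 and 14.3 in the KO. The genotypes did not overlap there, and the log2 difference was 0.63 (SE 0.20, limma adjusted p = 0.0313). That call was lost without WT replicate 1, KO replicate 2 or KO replicate 3, with adjusted p-values of up to 0.147. Its neighbour at chr12:86471467-86472614 had a mean enrichment of 5.04 ± 1.21 in WT and 8.46 ± 0.922 in KO libraries (SD, n = 3 each) and did not pass the threshold (log2 0.69, SE 0.24, limma adjusted p = 0.0501). The region at the internal start, chr12:86421470-86423022, differed by log2 −0.29 (SE 0.24, limma adjusted p = 0.414).

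Esrrb also held 3 H3K4me3 regions called in all 3 KO libraries and in none of the WT libraries. One, at chr12:86475097-86476225 in an intron, covered 742, 1054 and 809 bp in the KO with enrichments of 5.64, 3.82 and 4.52. Another intronic region, at chr12:86479593-86480756, covered 570, 665 and 440 bp. The most distant, at chr12:86505084-86506432, reached 2 exons and covered 585, 1010 and 970 bp. These KO-only regions were weaker than the region at 108.6 kb in the same libraries.

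**Figure D2:**
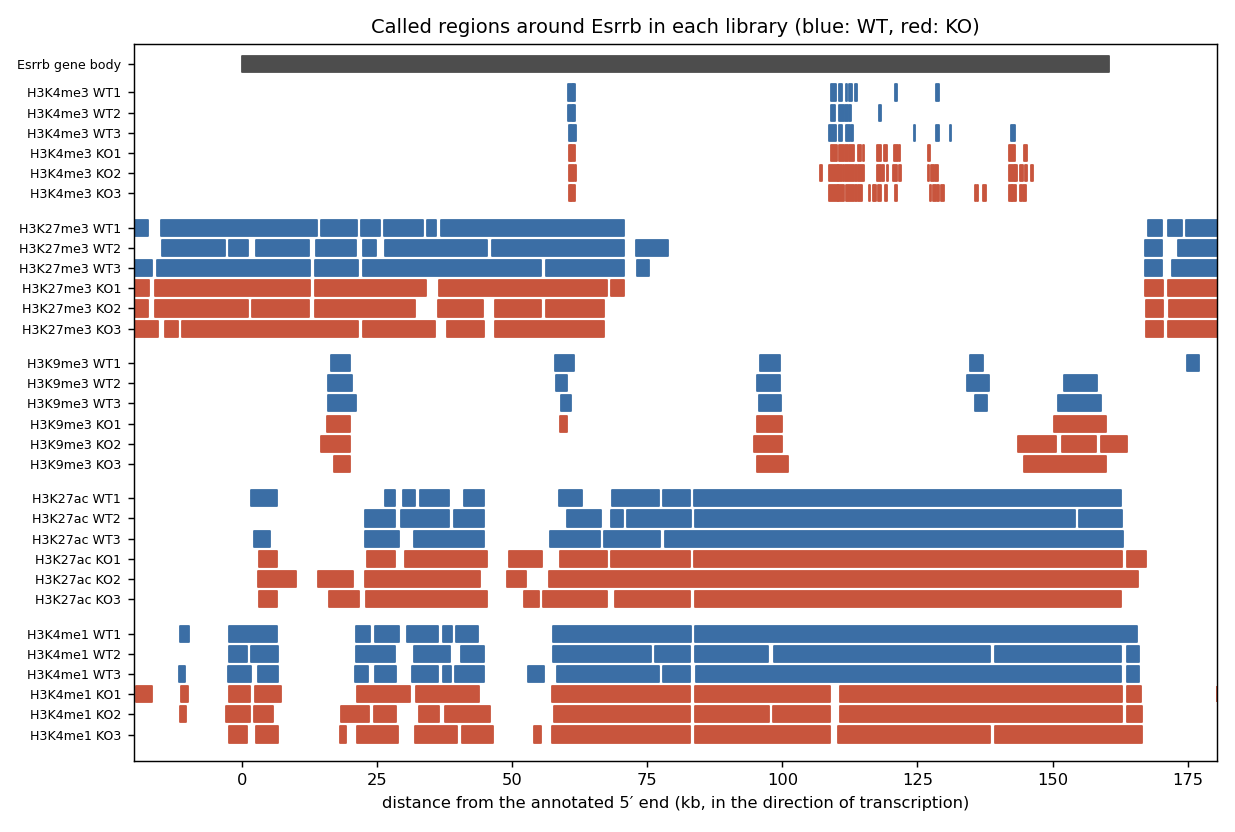
Called regions of 5 marks around Esrrb in each WT (blue) and KO (red) library, against distance from the annotated 5′ end in kb, with the gene body of 160512 bp in grey. H3K4me3 calls are denser in the KO between 108.6 and 145.3 kb, merged H3K27me3 calls span −20.3 to 70.7 kb, and the widest merged H3K27ac region runs from 55.7 to 167.3 kb.

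At Nr5a2, covered H3K4me3 was 2621, 2977 and 3235 bp in the WT and 3432, 3531 and 4416 bp in the KO. The groups did not overlap, though the lowest KO value was only slightly above the highest WT value, and the ratio was 1.29. Its 2 shared regions, at chr1:136952116-136954002 and chr1:136948237-136950003, lay 6.4 and 10.4 kb into the gene over exons and had lower mean enrichment in the KO without passing the test (log2 −0.36, SE 0.20, and −0.50, SE 0.25, limma adjusted p = 0.210 and 0.165). Covered sequence was thus higher at this gene while the height of its shared peaks was not.

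At Tfcp2l1, WT libraries had a single peak each, of 681, 706 and 978 bp, at the promoter, whereas H3K4me3 in KO libraries covered 1252, 1651 and 2690 bp in 2, 3 and 5 peaks. The promoter region itself (chr1:118627591-118628712) had a mean enrichment of 10.9 ± 1.11 in WT and 12.3 ± 3.04 in KO libraries (SD, n = 3 each), a log2 difference of 0.07 (SE 0.20, limma adjusted p = 0.824). The added sequence lay inside the gene, where a region at chr1:118650046-118650916, in an intron 22.1 kb from the start, was called in all 3 KO libraries (276, 693 and 642 bp, enrichment 3.73, 5.07 and 4.69) and in no WT library.

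At Gbx2, covered H3K4me3 was 4319, 2821 and 4204 bp in the WT and 5534, 5833 and 6577 bp in the KO. Within the promoter window, from 5000 bp before to 100 bp after the start, it was 639, 630 and 637 bp against 985, 1193 and 1653 bp. Neither set of values overlapped between genotypes, and in the promoter window Gbx2 and Zfp42 were the 2 genes of the 9 for which this held, against 17.9% of all genes with a call there that were higher in the KO and 6.73% that were lower. The promoter region (chr1:89928163-89932557) was no higher in enrichment (12.7 ± 2.15 in WT against 11.4 ± 2.19 in KO libraries, SD, n = 3 each, log2 −0.23, SE 0.20, limma adjusted p = 0.431). A region 9.3 kb upstream, chr1:89940097-89940528, was called in the KO alone (432, 398 and 240 bp).

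At Prdm14, H3K4me3 covered 1296, 1007 and 1104 bp in the WT against 1429, 2958 and 2604 bp in the KO. KO replicate 1 lay just above the WT range and the other KO libraries far above it. The 1 region shared by all 6 libraries began 0.1 kb after the 5′ end in an intron (chr1:13126009-13127030) and differed by log2 0.16 (SE 0.24, limma adjusted p = 0.668).

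H3K4me3 height rose at 2 regions of Zfp42. Covered sequence was 5702, 6839 and 5739 bp in the WT and 9385, 10730 and 11587 bp in the KO, and in the promoter window 598, 365 and 389 bp against 708, 1416 and 1094 bp. Enrichment of the region over the start and first exons (chr8:43301636-43307808) was 9.65, 7.82 and 11.1 in the WT and 17.8, 15.4 and 16.5 in the KO, with no overlap. It rose by log2 0.73 (SE 0.18, limma adjusted p = 0.00737). Further into the gene, at chr8:43299115-43300803, enrichment was 5.79, 5.01 and 4.86 in the WT and 9.45, 9.52 and 10.95 in the KO, again without overlap, and the rise was log2 0.86 (SE 0.21, limma adjusted p = 0.00876). Both calls held without each of the 6 libraries in turn. Enrichment is over the input of the same genotype, and that input was raised in the KO over this segment in the experiments whose lists give it.

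At Gab1, in the same segment, covered H3K4me3 was 3840, 3346 and 3478 bp in the WT and 4292, 4463 and 4737 bp in the KO, without overlap and with the smallest ratio of the 9 genes (1.27). Its promoter region (chr8:80878888-80881200) was not called as changed (log2 −0.13, SE 0.21, limma adjusted p = 0.706). An intronic region of 373 bp at chr8:80858305-80858677, some 22 kb from the start, was called in the KO alone (338, 373 and 293 bp, enrichment 5.42, 6.14 and 5.17), next to a region at chr8:80858761-80860208 that all 6 libraries shared and that was not higher in the KO (log2 −0.31, SE 0.19, limma adjusted p = 0.250).

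At Dppa4 the region from 0.1 to 1.5 kb after the 5′ end (chr16:48283812-48285227) had an enrichment of 9.59, 8.12 and 7.52 in the WT and 15.4, 14.3 and 14.7 in the KO. KO values lay close together and well above the WT range, and the rise was log2 0.75 (SE 0.19, limma adjusted p = 0.0108). Total covered sequence was 1993, 1932 and 1241 bp in the WT and 2451, 3701 and 3247 bp in the KO at Dppa4. For Dppa2, whose window held the same 2 shared regions, it was 1936, 1860 and 1163 bp against 2355, 3608 and 3353 bp. Inside Dppa2, a region at chr16:48310026-48310584 was called only in the KO (428, 479 and 244 bp), and a further annotated Dppa2 start lies within it. The neighbouring shared region at chr16:48310772-48312800 had lower mean enrichment in the KO (10.1 ± 2.08 in WT against 7.22 ± 1.70 in KO libraries, SD, n = 3 each) and did not pass (log2 −0.56, SE 0.23, limma adjusted p = 0.0821). The called rise of this locus thus lay at the start of Dppa4.

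In all, the 9 windows held 65 H3K4me3 regions, of which 17 were called in all 6 libraries and could be tested. Of these, 4 rose and none fell by limma at adjusted p under 0.05, against 9.82% higher and 9.75% lower (19.6% in all) among all 14907 regions tested. At an unadjusted p under 0.05 by limma there were 7 of the 17, beside 5106 of all 14907. The median log2 difference was 0.16 over the 17 regions and −0.01 over all. Regions called in 3 of 3 KO and 0 of 3 WT libraries numbered 7 of the 65, and there was none of the opposite kind, against 3.12% and 0.743% of all merged H3K4me3 regions. None of the 7 overlapped the promoter window of its gene, which is drawn from the 5′ end. The region inside Dppa2 did reach a further annotated start of that gene, 6.57 kb from the 5′ end. With the same number of top-ranked peaks from each library, the count of such KO-only regions was 2.

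H3K27me3 was present at 7 of the 9 genes, and the one called change was a fall at Gbx2. Read density in the region over the Gbx2 promoter and gene (chr1:89916001-89939800), as ChIP reads per kb of called sequence, was 86.9, 95.4 and 98.1 in WT libraries against 69.4, 69.6 and 65.7 in KO libraries. The lowest WT library was well above the highest KO library. After scaling, the density fell by 0.46 on the log2 scale (SE 0.07, edgeR quasi-likelihood test, adjusted p = 0.00213), whereas 1.04% of 18809 regions tested genome-wide fell and 1.7% rose (2.73% in all). Input reads per kb at this region differed by log2 0.23. The call held under all 15 alternatives tried. Neighbouring domains upstream (chr1:89940201-89948400 and chr1:89950201-89983400) differed by log2 0.04 (SE 0.09) and −0.01 (SE 0.06, edgeR adjusted p = 0.890 and 0.964), so the called fall was that of the domain over the gene, while covered sequence in the Gbx2 window was 29400, 31379 and 31979 bp against 30379, 30579 and 30400 bp, which overlapped.

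Covered H3K27me3 separated the genotypes at Tfcp2l1 alone, with 7200, 10968 and 6168 bp in the WT and 4800, 2400 and 0 bp in the KO. WT values all exceeded KO values, which was the case for 7.91% of all genes against 12.9% of the opposite order, and read density over those calls was low (22.6 to 27.1 reads per kb in the WT). The order was lost with windows of 10 or 50 kb. Leaving out 1 library raised the number of such genes from 1 to 3 (without WT replicate 1) or 2 (without WT replicate 2 or KO replicate 1). Non-overlap is easier to reach with fewer libraries, and the share of all genes under these omissions was not computed.

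Esrrb carried the widest H3K27me3 domain of the set, from 20.3 kb before to 70.7 kb after the 5′ end (chr12:86340801-86431800), and its density was 47.5 ± 2.59 reads per kb in WT and 45.7 ± 2.09 in KO libraries (SD, n = 3 each, log2 −0.06, SE 0.07, edgeR adjusted p = 0.742). The merged domain spanned the annotated 5′ end and the shared H3K4me3 region at the internal start, 60.4 kb into the gene. It stopped short of the H3K4me3 peaks at 108.6 kb. The promoter regions of Prdm14 and Gab1 differed by log2 −0.18 (SE 0.13) and −0.11 (SE 0.08, edgeR adjusted p = 0.583 and 0.588). Nr5a2 had 2 regions that did not pass, Zfp42 a single call in WT replicate 3 at the edge of its window, and Dppa2 and Dppa4 no call in any library. Of 11 regions tested 1 was called, which was also the number at an unadjusted p under 0.05, where 2723 of all 18809 regions lay. No region was restricted to either genotype, against 1.8% of merged regions found only in the KO and 1.32% only in the WT.

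H3K9me3 appeared over the Zfp42 gene in KO libraries only. The merged region at chr8:43294001-43305200 lies mostly in the gene body, touches 4 of 5 exons and covered 0 bp in each WT library against 8600, 9200 and 9400 bp in the KO libraries. Regions found in 3 of 3 KO and 0 of 3 WT libraries were rare for this mark, at 0.427% of all merged regions, whereas 2.58% were of the opposite kind. Enrichment was slight: the fold over input was 1.27 and 1.48 for 2 calls of KO replicate 1, 1.27 for KO replicate 2 and 1.34 for KO replicate 3. KO replicate 2 also had a call of 400 bp 12.02 kb upstream with 54 ChIP reads and 0 input reads. With the same number of top-ranked calls from every library, the genotypes overlapped at this gene. Input reads per kb over the H3K9me3 calls of this window were 30.9, 32.1 and 32.4 in the KO, close to the ChIP density of 35.8, 32.3 and 31.9 in the region. H3K4me3, H3K27ac and H3K4me1 were called over the same gene in the same genotype.

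**Figure D3:**
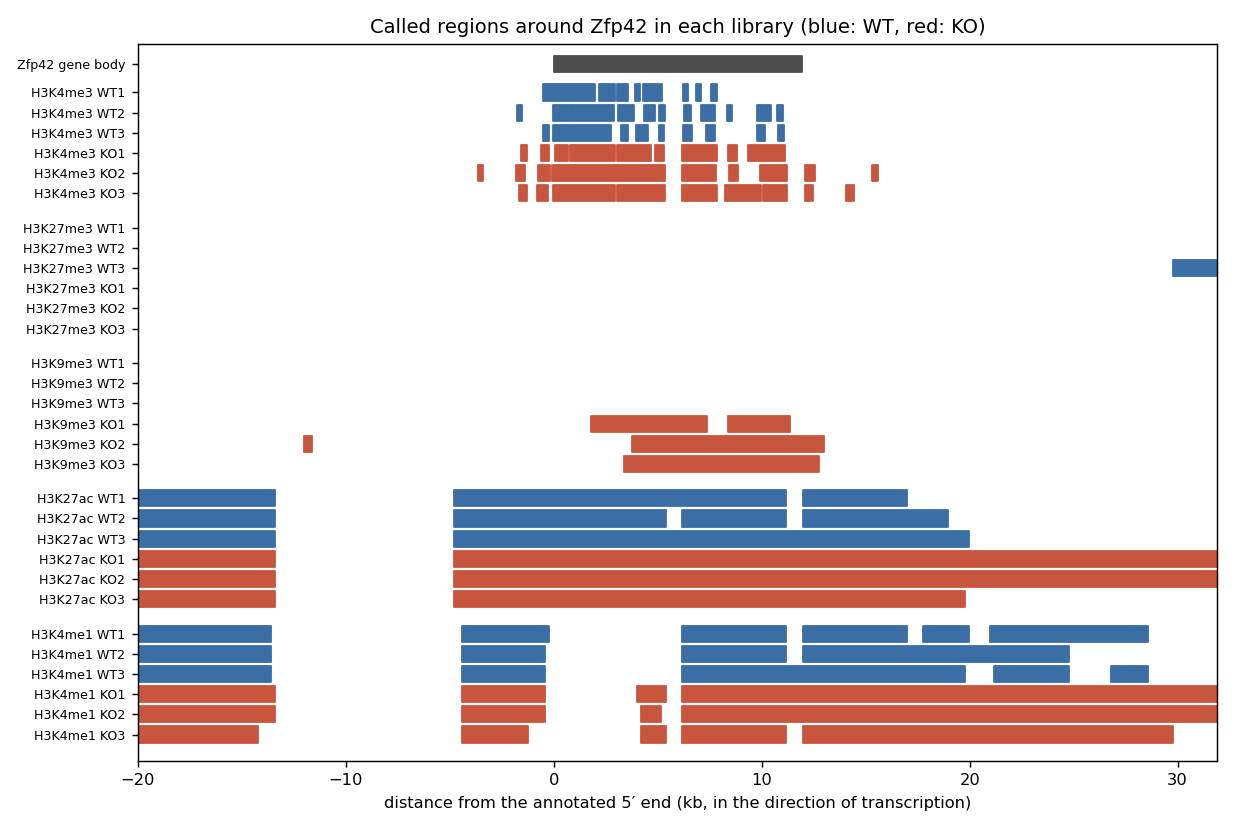
Called regions of 5 marks around Zfp42 in each WT (blue) and KO (red) library, against distance from the annotated 5′ end in kb, with the gene body of 11918 bp in grey. H3K9me3 is called over the gene in the 3 KO libraries only, from 1.8 to 13.0 kb, and H3K27ac runs on to 32.0 kb in KO replicates 1 and 2 and to no more than 20.0 kb in the other libraries.

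At Gab1 covered H3K9me3 went the other way, with 19919, 17919 and 16719 bp in the WT and 11400, 0 and 1800 bp in the KO. The genotypes did not overlap, as for 13.5% of genes lower in the KO, but the order was lost at a false discovery rate (FDR) under 0.01, with windows of 50 kb and with equal numbers of top-ranked calls. At Tfcp2l1, H3K9me3 covered 3600, 0 and 4200 bp in WT libraries against 4800, 8200 and 11400 bp in KO libraries, an order (KO higher) seen in 4.28% of genes, and it was kept at the stricter FDR, with windows of 10 and 50 kb and with top-ranked calls. The calls of WT replicates 1 and 3 lay at different places in the gene, while all 3 KO libraries shared a stretch between 11.5 and 16.3 kb. An intronic region of Esrrb, chr12:86495201-86499400, was called in the 3 WT libraries (2400, 4200 and 2200 bp) and in no KO library. Leaving out KO replicate 1 raised the number of genes without overlap from 3 to 5. Fewer libraries make that easier to reach, and the share of all genes under this omission was not computed.

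Only 5 H3K9me3 regions near the genes were called in all 6 libraries, and edgeR's quasi-likelihood test called 0 of them, as did DESeq2. At an unadjusted p under 0.05 by edgeR, where 2771 of 27342 regions lay genome-wide, there was 1 of the 5. That one lay in an intron of Esrrb (chr12:86375801-86382200), with 46.3 ± 4.13 reads per kb in WT and 33.3 ± 6.38 in KO libraries (SD, n = 3 each, log2 −0.48, SE 0.15, edgeR adjusted p = 0.269). With input reads as an offset, 1 of the 5 regions was called, lower in the KO, beside 6856 of 27342 regions genome-wide. Without that offset, 0.168% of the 27342 rose genome-wide and 0.267% fell (0.435% in all).

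H3K27ac was the mark with most regions called higher in the KO. It covered between 56.3% and 88.8% of each window in the WT, where the median gene had 22.9%, so the genes were broadly acetylated in both genotypes. Of 21 regions tested by edgeR, 14 had an unadjusted p under 0.05, beside 6277 of 24039 regions genome-wide. After adjustment 11 rose and none fell, against 8.19% higher and 4.56% lower (12.8% in all) of the 24039 regions. These genome-wide shares depend on scaling: regions higher and lower numbered 1968 and 1097 as scaled here, 1193 and 2228 with library totals alone, and 721 and 4459 with TMM factors taken from counts not corrected for length, which shifted the median of all regions by log2 −0.13. Near the 9 genes, 7 regions were called under the last scaling and 8 under library totals, all of them higher in the KO.

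Outside chromosome 8, the called H3K27ac rises were largest at Tfcp2l1 and Esrrb. At Tfcp2l1 a region that spanned the promoter and the whole gene (chr1:118619601-118706000) had 86.3, 91.1 and 89.8 ChIP reads per kb in WT libraries against 123, 125 and 104 in KO libraries. Every KO library exceeded every WT library, and the difference was log2 0.39 (SE 0.02, edgeR adjusted p = 1.22e-06). At Esrrb, the region over the 3′ part of the gene (chr12:86416801-86528400) had 102, 108 and 110 reads per kb in the WT and 138, 134 and 118 in the KO, also without overlap. The difference was log2 0.27 (SE 0.02, edgeR adjusted p = 5.3e-06). Both calls held under all 15 alternatives, with ranges of 0.26 to 0.45 and 0.15 to 0.29. Input differed by log2 0.06 at the Tfcp2l1 region and by −0.002 at the Esrrb region. An intronic region of Esrrb just before it, chr12:86410201-86416600, was called in the KO alone (6000, 3400 and 2600 bp), and Gab1 held the one region restricted to the WT, against 1.35% and 3.62% of all merged H3K27ac regions.

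Covered H3K27ac sequence was higher without overlap at 4 genes, where 25.9% of all genes were higher and 9.2% lower. At Esrrb it was 114800, 118600 and 126600 bp in the WT and 135800, 147400 and 138400 bp in the KO. At Tfcp2l1 it was 78456, 73656 and 85424 bp against 87456, 87624 and 89624 bp. At Nr5a2 it was 104800, 104400 and 108648 bp against 118848, 125048 and 124600 bp. At Gab1 it was 88400, 98400 and 98800 bp against 121163, 116963 and 117682 bp. All 4 kept this order under the 4 alternatives with all libraries (a stricter FDR, windows of 10 and 50 kb, and equal numbers of top-ranked calls), and at Dppa2 and Dppa4 the covered sequence overlapped between genotypes.

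Rises elsewhere were smaller. The region over Dppa2 and part of Dppa4 (chr16:48287401-48328400) had 89.8, 90.7 and 94.4 reads per kb in the WT and 116, 118 and 93.9 in the KO before scaling, where KO replicate 3, the shallowest KO library, lay within the WT range. It rose by log2 0.24 after scaling (SE 0.03, edgeR adjusted p = 0.000457), a call lost with no length offset. At Nr5a2 the region over the promoter and gene (chr1:136845801-136981000) had 55.8, 58.6 and 59.3 reads per kb in the WT and 67.4, 67.6 and 57.4 in the KO, which overlapped before scaling, and the scaled difference was log2 0.14 (SE 0.02, edgeR adjusted p = 0.00143). At Gbx2 the promoter region (chr1:89917201-89945200) had 51.5, 55.4 and 54.7 reads per kb in the WT and 63.7, 63.3 and 58.7 in the KO, which did not overlap. That difference was log2 0.20 (SE 0.05, edgeR adjusted p = 0.0200), over the same stretch in which H3K27me3 fell, and a second region beyond the 3′ end (chr1:89816601-89914400) rose by 0.17 (SE 0.03, adjusted p = 0.00560) from 69.6, 66.5 and 67.3 reads per kb to 78.9, 79.8 and 71.6. At Prdm14 a region that began inside the gene (chr1:13047801-13122800) had 90.4, 95.5 and 98.7 reads per kb against 104, 107 and 92.9, and rose by log2 0.09 (SE 0.02, edgeR adjusted p = 0.0413).

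The calls at Prdm14 and the Gbx2 promoter depended on single libraries. The Prdm14 region was not called without WT replicates 1 or 2 or KO replicates 2 or 3, with adjusted p-values of up to 0.141, and its difference became log2 −0.035 with TMM factors from uncorrected counts. The Gbx2 promoter region was not called without WT replicates 1 or 3 or KO replicate 3, with adjusted p-values of up to 0.0788. At Nr5a2 and both Gbx2 regions the call was also lost with TMM factors from uncorrected counts.

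**Figure D4:**
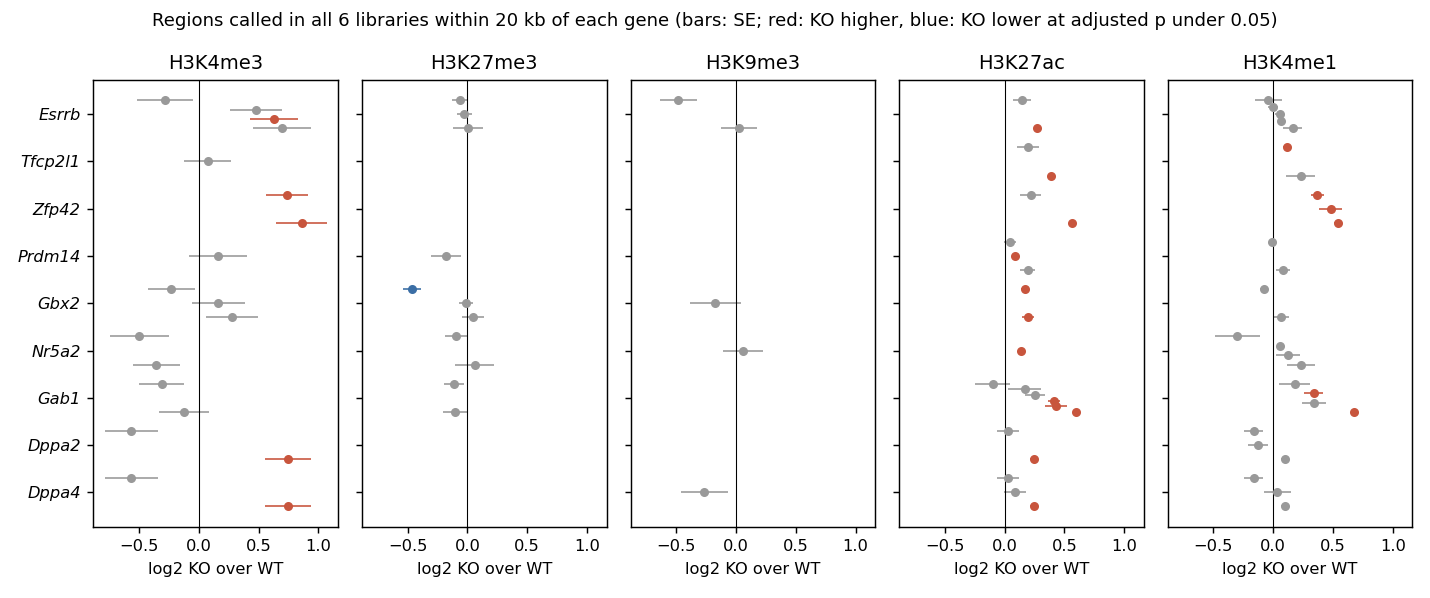
Difference between KO and WT (horizontal axis, log2 KO over WT, bars ± SE) for every region called in all 6 libraries within 20 kb of each gene, for 5 marks, with regions higher in the KO at adjusted p under 0.05 in red, lower in blue and others in grey. H3K4me3 is the difference in highest fold enrichment and the other marks in read density, Dppa2 and Dppa4 share regions and show them in both rows, and called differences are to the right of 0 except H3K27me3 over Gbx2 (−0.46).

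At Zfp42 and Gab1 the H3K27ac differences were larger and ran with input. The Zfp42 region from 35.6 to 13.4 kb upstream (chr8:43320401-43342600) had 118, 123 and 128.6 reads per kb in the WT and 193, 192 and 165 in the KO, log2 0.57 (SE 0.03, edgeR adjusted p = 1.58e-07), where input differed by log2 0.54. Over the Gab1 gene body (chr8:80772601-80867000) density was 50.1, 51.2 and 51.4 in the WT and 80.7, 82.0 and 69.5 in the KO, log2 0.60 (SE 0.02, edgeR adjusted p = 4.1e-08), where input differed by 0.50. Genotypes did not overlap at either region. With input reads as an offset these differences were −0.033 and 0.039 and neither passed the threshold. Of the 2 other Gab1 regions called, chr8:80746001-80754200 (44.4, 46.0 and 50.0 against 68.1, 70.5 and 52.4 reads per kb, log2 0.43, SE 0.09) became 0.09 with the offset, and chr8:80684801-80745200 (60.4, 59.0 and 61.4 against 88.9, 77.1 and 75.7, log2 0.41, SE 0.05) became −0.18, which passed the threshold in the opposite direction (edgeR adjusted p = 0.0309). The Zfp42 promoter region (chr8:43275001-43311800) was not called as changed (151 ± 0.997 against 176 ± 14.6 reads per kb, SD, n = 3 each, log2 0.22, SE 0.09, edgeR adjusted p = 0.146). A region at chr8:80890001-80894000, 13.5 kb upstream of Gab1, was called for H3K27ac in the 3 WT libraries (3600, 2400 and 2600 bp) and in no KO library.

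H3K4me1 covered 56.5% to 92.8% of each window in the WT (median gene 36.3%), and its called changes lay mostly at the 2 genes of chromosome 8. Of 26 regions tested, 6 rose and none fell, against 4% higher and 1.64% lower (5.64% in all) of 44625 regions. At an unadjusted p under 0.05 by edgeR there were 11 of the 26, beside 8300 of the 44625. Over Gab1 and its promoter (chr8:80772001-80883200) density was 76.8, 78.6 and 77.3 reads per kb in the WT and 122, 119 and 121 in the KO. The groups lay far apart with little spread, and the difference was log2 0.67 (SE 0.02, edgeR adjusted p = 1.33e-11). This was the one chromosome 8 call of H3K4me1 that held with the input offset, at log2 0.12. Genome-wide, 7908 of the 44625 regions passed with that offset, beside 2516 without it. A second Gab1 region (chr8:80740001-80754200) had 80.6, 74.8 and 86.4 reads per kb against 88.8, 112 and 98.3 (log2 0.34, SE 0.08, edgeR adjusted p = 0.0255), was lost without WT replicates 1 or 2 or KO replicates 2 or 3 (adjusted p up to 0.102) and became −0.052 with the offset.

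At Zfp42 the 3 called H3K4me1 regions had 81.2, 82.4 and 85.6 against 119, 118 and 117 reads per kb at chr8:43320401-43342600 (log2 0.54, SE 0.03), 83.3, 93.0 and 90.0 against 110.0, 122 and 131 before the promoter at chr8:43307201-43311400 (0.48, SE 0.10), and 65.8, 66.2 and 69.7 against 77.9, 85.8 and 89.6 at chr8:43273401-43300800 (0.37, SE 0.05). Each had KO libraries above WT libraries. Input differed there by log2 0.46 to 0.54, and with the offset the differences were −0.047, −0.11 and −0.14. Covered H3K4me1 sequence was also higher without overlap at these 2 genes, at Zfp42 with 30380, 28180 and 29380 bp against 37718, 37318 and 32980 bp and at Gab1 with 128000, 113963 and 126963 bp against 133563, 132000 and 134363 bp, where 12.7% of genes were higher and 18.1% lower. Leaving out KO replicate 2 raised the number of genes without overlap from 2 to 7, which fewer libraries make easier to reach. The share of all genes under this omission was not computed. A region of 1400 bp inside Zfp42 (chr8:43301601-43303000) was called in the KO alone (1400, 1000 and 1200 bp), as 1.49% of all merged regions were, against 2.09% in the WT alone.

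Outside chromosome 8 the single H3K4me1 call was at Tfcp2l1 (chr1:118619601-118693800), with 86.9, 87.3 and 91.9 reads per kb in the WT and 92.5, 97.1 and 90.5 in the KO, which overlapped before scaling. Its log2 difference of 0.11 (SE 0.03, edgeR adjusted p = 0.0370) was lost without any one of WT replicates 1 and 2 and KO replicates 1 and 2 (adjusted p up to 0.148), and was −0.022 with the input offset. The H3K27ac difference over nearly the same stretch was 0.39, and these marks were not compared by a test.

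**Figure D5:**
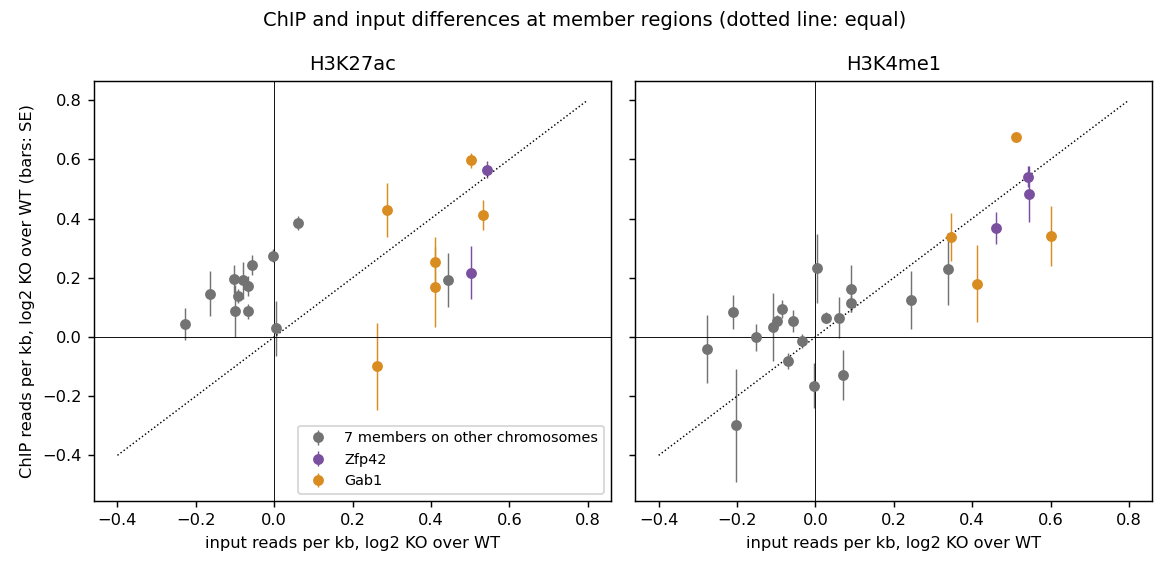
Difference in ChIP reads per kb (vertical axis, log2 KO over WT, bars ± SE) against difference in input reads per kb (horizontal axis, log2 KO over WT) for regions called in all 6 libraries near the 9 genes, for H3K27ac and H3K4me1, with a dotted line where both are equal. Zfp42 (purple) and Gab1 (orange) sit to the right, with input differences of 0.26 to 0.60, and H3K27ac at Tfcp2l1 (0.39) and Esrrb (0.27) stands above the line at input differences near 0.

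Read density over whole windows gave a like picture. It could be compared in 27 pairs of gene and mark with calls in all 6 libraries, of which 7 were higher and 2 lower in the KO without overlap, against 9.07% higher and 5.42% lower for H3K27ac over all genes, 10.3% and 22.4% for H3K4me1, 10.3% and 8.9% for H3K27me3, and 2.58% and 3.83% for H3K9me3. The higher pairs were H3K27ac at Esrrb, Tfcp2l1, Zfp42, Gbx2 and Gab1 and H3K4me1 at Zfp42 and Gab1, and both lower pairs were at Gbx2. There H3K27me3 was 82.0, 78.4 and 82.9 reads per kb in the WT and 60.8, 66.8 and 64.5 in the KO, and H3K4me1 116, 120 and 120.1 against 112, 112 and 108. H3K27ac at Gbx2 was 51.6, 53.9 and 54.7 against 88.1, 85.4 and 75.9 reads per kb, a difference of 29.7 that was 8.50 when only calls wholly inside the window were counted. Leaving out KO replicate 3 raised the count of pairs without overlap from 9 to 17. Such an order is easier to reach with fewer libraries, and no share of all genes was computed for this omission.

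Other genes of the naive network, a list of 21, showed rises in the same marks. H3K4me3 covered sequence was higher without overlap at 14 of the 21 and lower at none, beside the 26.9% and 6.89% of all genes given above. At promoters, 4 of 16 genes tested rose in enrichment (Klf2, Nanog, Pou5f1 and Utf1) and none fell, beside 9.82% higher and 9.75% lower of all regions. Klf2, a Krüppel-like factor of the naive state that also lies in the chromosome 8 segment, went from 8.48 ± 2.34 to 16.4 ± 3.74 (SD, n = 3 each, log2 0.88, SE 0.24, limma adjusted p = 0.0142), and Utf1, a chromatin protein of mESCs, from 12.5 ± 3.81 to 22.8 ± 0.545 (log2 0.83, SE 0.17, adjusted p = 0.00292). H3K27ac rose at 13 of 21 promoters and fell at Dppa3 and Dppa5a, beside 8.19% higher and 4.56% lower of all regions as scaled here. The rise was largest at Klf2 (log2 0.79, SE 0.02, edgeR adjusted p = 1.46e-09) and Sall4 (0.41, SE 0.02, adjusted p = 6.35e-08). H3K27me3 fell at Tbx3, a T-box repressor, from 73.2 ± 3.40 to 43.4 ± 2.89 reads per kb (SD, n = 3 each, log2 −0.76, SE 0.08, edgeR adjusted p = 4.71e-05), the 1 call among 3 tested, beside 1.04% lower and 1.7% higher of all regions. H3K4me1 rose at Klf2 and Sall4 and fell at Tcl1, of 21 tested, beside 4% higher and 1.64% lower of all regions. None of 2 promoters tested for H3K9me3 was called by edgeR.

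Formative and primed epiblast genes, a list of 14, had calls in both directions. H3K27ac fell at 5 of 10 promoters tested, Dnmt3b (log2 −0.40, SE 0.03, edgeR adjusted p = 1.45e-05), Zic2 and Zic5 (1 shared region, −0.28, SE 0.05, adjusted p = 0.00155), Lef1 and Pou3f1, and rose at Nodal, beside the same genome-wide shares, whose order turned under library totals as given above. H3K4me3 enrichment rose at Zic2 (log2 1.02, SE 0.21, limma adjusted p = 0.00311) and Dnmt3b and fell at Lef1 (−0.85, SE 0.23, adjusted p = 0.0131), of 10 tested, beside 9.82% higher and 9.75% lower of all regions. Covered H3K4me3 was higher without overlap at 1 of the 14 windows and lower at 4, where 26.9% of all genes were higher and 6.89% lower. H3K4me1 fell at Dnmt3b and Lef1 of 14, beside 1.64% of all regions lower and 4% higher, with 11 of the 14 windows lower in covered sequence without overlap where 18.1% of all genes were, and none of 11 passed for H3K27me3. Median log2 differences in H3K27ac were 0.14 over 21 naive-network promoters, −0.21 over 10 primed promoters, 0.19 over the 21 regions of the 9 genes and −0.01 over all regions. The difference between these lists was not tested. Regions of Zfp42 and Gab1 are among the 21 regions, and Klf2 is among the naive-network promoters. Over their chromosome 8 segment as a whole, H3K27ac ChIP reads differed by log2 0.27 and input by 0.49.

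Genes whose promoter profile over 30 libraries was most like that of a member were found by Pearson's r of the share of the promoter covered, as a description. The nearest were Cdh15 for Esrrb (r = 0.997), Jarid2 for Tfcp2l1, Snx5 for Zfp42 and Ccdc141 for Prdm14, with r from 0.930 for Nr5a2 and Psmb11 upwards. Libraries of one mark share most of such a profile.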

How the data were processed

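Called regions of 5 histone marks were available for 3 WT and 3 KO libraries per mark, with 8 inputs that were used only as read counts within the lists. Per the study's methods, the authors trimmed reads (Trim Galore), used Bowtie2 and GRCm38 for H3K4me1, H3K4me3 and H3K27me3, marked duplicates, removed multimapped and low-quality reads and blacklisted regions, and discarded Drosophila spike-in reads of H3K27me3. The submitters' processing notes name Bowtie2 2.4.4, MACS2 2.2.7.1, SAMtools 1.15, SICER 0.0.52, Trim Galore 0.6.6 and deepTools 3.5.1. The aligner of H3K9me3 and H3K27ac reads is not given in the sources used here. For H3K27ac the labels and the methods name different antibodies.

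H3K4me3 files are peak lists that the authors deposited with a fold enrichment over input, a score, and −log10 p and −log10 q values for each peak. The other files are epic2 lists in which the authors deposited, for each enriched region, the ChIP and input read count, a p-value, an FDR and a log2 fold change over input, beside a score. All lists were called per library. Each mark had 1 input per genotype for its 3 libraries, and H3K27ac and H3K4me1 shared theirs. Counting error of an input therefore enters as a difference between genotypes, and for those marks it is the same error.

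Gene models were those of GENCODE M21 on GRCm38, the promoter window ran from 5000 bp before to 100 bp after the 5′ end, and calls were clipped to the gene body plus 20 kb. Covered bp and read density were compared by a two-sided exact permutation test over libraries. Overlapping calls of the 6 libraries of a mark were merged, and merged regions called in all 6 were tested genome-wide with Benjamini-Hochberg adjustment at 0.05. Read counts were tested by edgeR 4.0.16 quasi-likelihood with called length as an offset and TMM factors from length-corrected counts. The highest H3K4me3 enrichment per region was tested by limma 3.58.1 on median-centred log2 values, with no pseudocount. The fits were tested on simulated data. Python 3.11.15, pandas 2.3.3, SciPy 1.17.1 and R 4.3.3 were used, and DESeq2 1.42.0 for an alternative.

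All 9 genes are described, with values per library where genotypes did not overlap, a region passed the test, or a region was called in 3 of 3 libraries of 1 genotype and 0 of 3 of the other. The 9 genes and the gene lists were chosen with earlier results of these data known.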

Additional observations from a re-analysis of the deposited data

How the results depend on the processing

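Counts over the 9 genes and their regions were recomputed 136 times, and 116 of these values stayed within 1.5 times the count reported. Genes without overlap in covered sequence numbered 7 for H3K4me3 with windows of 10 kb or with equal numbers of top-ranked calls (9 reported), 0 for H3K27me3 with windows of 10 or 50 kb (1 reported), 1 for H3K9me3 with top-ranked calls (3 reported), and 4 with 50 kb and 1 with top-ranked calls for H3K4me1 (2 reported). Shares of all genes higher and lower were 25.2% and 7.09% (H3K4me3, 10 kb) and 23.9% and 8.78% (H3K4me3, top-ranked). For H3K27me3 they were 11.7% and 7.73% with 10 kb and 15.2% and 8.21% with 50 kb. For H3K9me3 with top-ranked calls they were 6.12% and 9.04%. For H3K4me1 they were 13.8% and 20.7% with 50 kb and 11.9% and 17.6% with top-ranked calls. Without 1 library, H3K27ac had 4 to 6 such genes, H3K4me1 had 3 to 7, H3K9me3 had 3 to 5 and H3K27me3 had 1 to 3. Counts of this kind are easier to reach without a library, and shares of all genes or regions were not computed for these omissions. Regions called numbered 2 (regions of like length) and 3 (no length offset) for H3K27me3, where 1 is reported. Genome-wide these fits called 711 of 2025 and 1918 of 18809 regions, against 2.73% as reported. With an input offset 1 was called for H3K9me3, where 0 are reported, beside 6856 of 27342 genome-wide against 0.435%. For H3K27ac they numbered 7 (like length) and 7 (TMM without length, chosen after seeing the data) against 11. Genome-wide these fits called 2145 of 4054 and 5180 of 24039 regions, against 12.8%. For H3K4me1 they numbered 12 (no length offset) and 10 (TMM without length) against 6. Genome-wide these fits called 10341 and 3674 of 44625 regions, against 5.64%. The H3K9me3 fit on regions of like length left no region near the genes. Pairs without overlap in read density numbered 15 after division by TMM-normalized totals and 9 to 17 without 1 library, and genotype-restricted regions 5 with top-ranked calls and 12 to 18 without 1 library.

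Log2 differences that changed sign were −0.035 for Prdm14 H3K27ac with TMM without length and, with input offsets, −0.033 for Zfp42 H3K27ac, −0.18 for Gab1 H3K27ac, −0.022 for Tfcp2l1 H3K4me1, −0.14, −0.11 and −0.047 for the Zfp42 H3K4me1 regions and −0.052 for the distal Gab1 H3K4me1 region. The cause was not tested. With replicate number as a replicate block, 11 H3K27ac regions were called, with 5 for each of H3K4me3 and H3K4me1, 1 for H3K27me3 and 0 for H3K9me3. Genome-wide the block fits called 2844 of 24039 H3K27ac, 3005 of 14907 H3K4me3 and 2124 of 44625 H3K4me1 regions. For H3K27me3 they called 479 of 18809 and for H3K9me3 90 of 27342. Libraries with the same number showed no common deviation, so they were not treated as paired. A measure other than covered sequence in the promoter window took the full length, within the gene window, of calls that touch the promoter. By it, 1 gene had no overlap for H3K4me3. With promoters defined by any annotated start (chosen after seeing the data), there were 4.

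Reads within calls are not known for H3K4me3, and the study gives its sequencing depth only as a range. With 3 libraries a group, the permutation test cannot pass 0.05 for a difference of any size. In simulated data the H3K4me3 fit recovered small and large changes less often than the count fits, although the changes simulated for it were larger. A region that did not pass may therefore still differ, and 1 input per genotype limits every value with an input offset.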
